A study of Mus musculus with 6 samples.

Results

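The genes described here are Gpnmb, Trem2, Tyrobp, Spp1, Lgals3, Cd9, Cd63 and Mitf, which are linked to lipid-associated macrophages. They were taken by symbol from the gene tables, 8 of 16775 genes, and all 8 passed the filter on low counts that left 11898 genes for comparison. The data are RNA sequencing of bone-marrow-derived macrophages, grown for 5 days from marrow of C57BL/6 mice in 10 ng/ml M-CSF, which drives marrow cells to become macrophages. All cultures were then exposed for 24 hours to IL4, the cytokine of alternative activation, either alone or with 1 of 5 compounds added: fatostatin, betulin, 25-HC, PF429424 and 1,10-Phen. Each of these 6 treatments gave 1 library, and the labels give no dose, no age or sex of the mice, no number of animals and no culture without IL4. Betulin and fatostatin are small molecules known to block the maturation of SREBP proteins, transcription factors of lipid synthesis. The labels state no target for any of the compounds. The series title names SREBP2 and alternative activation, so each comparison asks how far the level of a gene in a compound library stood from its level with IL4 alone.

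Lipid-associated macrophages are a state described in fatty tissue, arterial plaques and other sites where macrophages take up lipid and dying cells. TREM2 is a surface receptor that binds lipids and lipoproteins and signals through the adaptor TYROBP, also called DAP12. Cells in this state carry high levels of GPNMB, a transmembrane glycoprotein of endosomes and the cell surface, of osteopontin (Spp1), galectin-3 (Lgals3) and the tetraspanins CD9 and CD63, and MITF is a transcription factor of lysosomal genes that is known to activate Gpnmb. Several of these genes are also high in osteoclasts, and macrophages grown in M-CSF already express them.

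The 6 libraries held between 20181396 and 21169667 estimated counts. Levels below are in FPKM, which corrects for transcript length and can be compared between genes. Ratios are log2 ratios of counts scaled between libraries with TMM factors, so that 1 is a 2-fold difference. A gene is counted as higher or lower when its ratio was at least 2-fold in size and its exact Clopper-Pearson 95% interval excluded no difference. Each ratio compares 2 libraries, not 2 conditions: the intervals cover counting error only, and since no treatment was repeated there is no test between treatments. All 5 ratios of a gene share the IL4 library, so a deviation of that library cannot be told apart from an effect common to the compounds. In these bulk samples, fewer cells of a type and less RNA per cell cannot be told apart either.

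The macrophage identity of the cells was checked on 12 markers, none of which was at 0 in any library. Their summed level ran from 7846 CPM (TMM-scaled counts relative to library size) with 25-HC to 12826 CPM with fatostatin, and was 12412 CPM with IL4. The neutrophil markers, 13 genes such as S100a8 and Ngp, summed to between 299 and 381 CPM in the IL4, fatostatin, betulin and 25-HC libraries, but to 86.4 CPM with PF429424 and 81.7 CPM with 1,10-Phen. Melanocyte, B cell and T and NK cell markers stayed at or under 4.98 CPM in sum, dendritic cell markers at or under 16.3 CPM and mast cell markers at or under 23.5 CPM. Stromal markers summed to between 43.0 and 126 CPM. The sum came mostly from Col1a1, Col1a2 and Sparc, while Col3a1, Dcn and Lum were at or under 8 counts in every library. The erythroid and megakaryocyte list ran from 199 to 441 CPM.

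Across the 8 genes, the IL4 library assigned 1.85% of its counts to them. The share was 2.31% with fatostatin, 2.64% with betulin, 2.503% with 25-HC, 3.64% with PF429424 and 1.46% with 1,10-Phen. Gpnmb and Lgals3 made up most of it in every library. In FPKM with IL4 alone, Lgals3 stood highest at 4273, followed by Gpnmb at 2424, Tyrobp at 1026, Spp1 at 884, Cd63 at 514, Cd9 at 439, Trem2 at 392 and Mitf at 37.4. The plot of levels by library shows the 8 genes side by side.

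**Figure D1:**
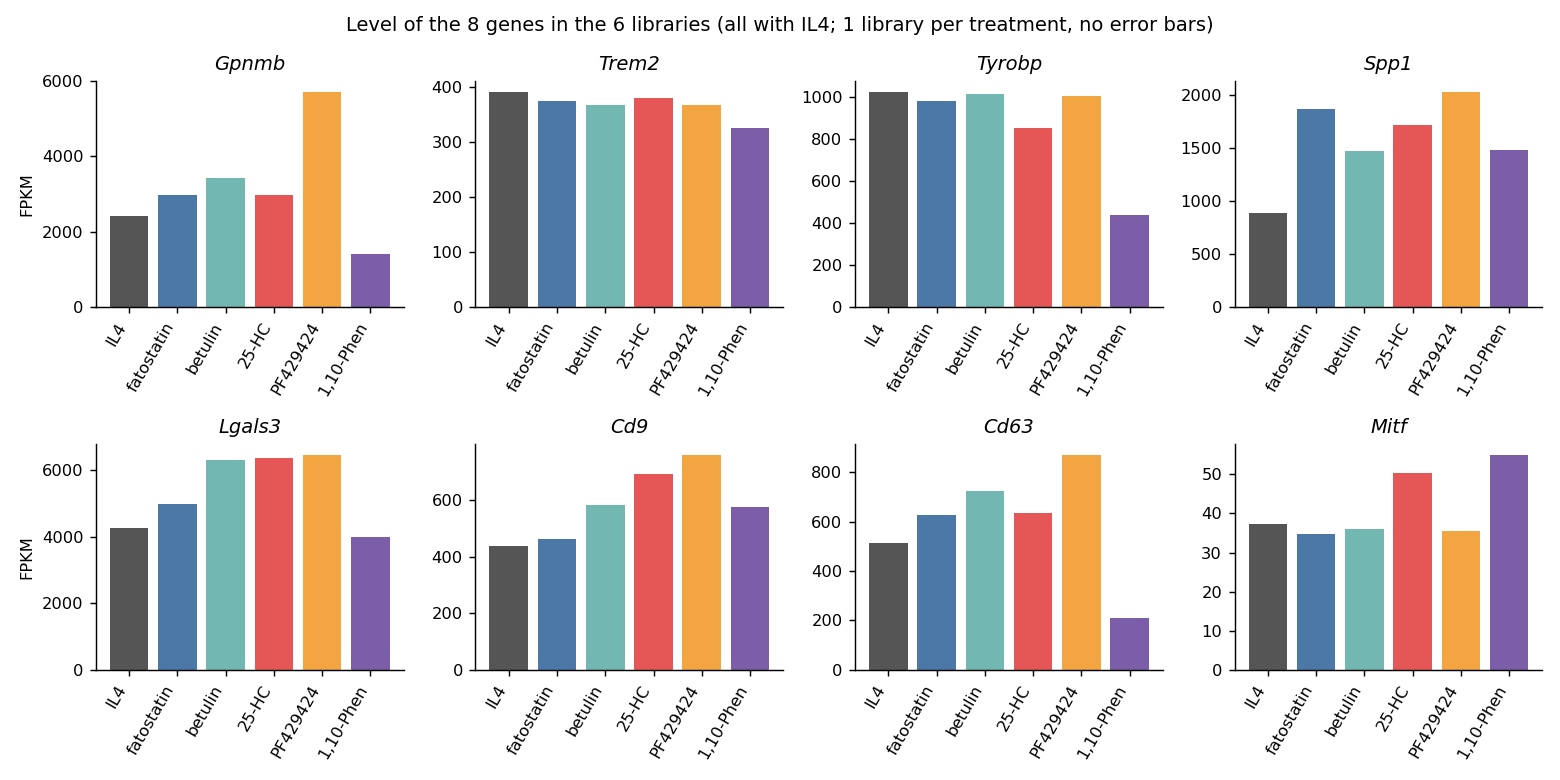
FPKM (vertical axis, from 0, a separate scale for each gene) of the 8 genes in the 6 libraries, 1 bar per library and therefore no error bar. Gpnmb runs from 1398 with 1,10-Phen to 5715 with PF429424, whereas the Trem2 bars lie between 326 and 392.

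Gpnmb was the gene with the highest count of its whole library in the PF429424 culture. Its level was 2424 FPKM with IL4, 2969 with fatostatin, 3438 with betulin, 2977 with 25-HC, 5715 with PF429424 and 1398 with 1,10-Phen. Thus 4 compound libraries lay above IL4, the 1,10-Phen library lay below it, and PF429424 stood apart from the rest. The log2 ratio to IL4 was 1.38 with PF429424 (95% interval 1.37 to 1.38), which rests on 459724 against 187188 estimated counts, and 98.9% of the genes compared had a lower ratio there. It was 0.35 with fatostatin, 0.57 with betulin, 0.33 with 25-HC and -0.55 with 1,10-Phen, all short of 2-fold but beyond counting error. By rank of its count among all genes, Gpnmb was number 5 with IL4 and with fatostatin, 3 with betulin, 4 with 25-HC, 1 with PF429424 and 16 with 1,10-Phen. By FPKM, which removes the advantage of a long transcript, its ranks were 13, 12, 9, 9, 8 and 32 in the same order. It took 2.19% of all counts with PF429424 and 0.535% with 1,10-Phen, against 0.928% with IL4.

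Cd63, a tetraspanin of late endosomes, lysosomes and exosomes, had the profile nearest to that of Gpnmb among the other 7 genes. Cd63 stood at 514 FPKM with IL4, 626 with fatostatin, 724 with betulin, 633 with 25-HC, 871 with PF429424 and 211 with 1,10-Phen. The order of the libraries was that of Gpnmb, with PF429424 highest and 1,10-Phen lowest, except that fatostatin and 25-HC did not differ beyond counting error. The log2 ratio was -1.05 with 1,10-Phen (95% interval -1.10 to -0.99, which reaches to just inside 2-fold), just past 2-fold, and 0.90 with PF429424, just short of it. It was 0.34 with fatostatin, 0.56 with betulin and 0.34 with 25-HC. Likeness was measured as the root mean square difference of log2 CPM after each gene was centred on its mean over the 6 libraries: it was 0.23 between Gpnmb and Cd63, against 0.22 for the closest pair, Lgals3 and Cd9, and 0.87 for the farthest, Cd63 and Mitf.

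Gpnmb lies at chr6:49036518-49058182 on the plus strand and Cd63 at chr10:128896231-128912822 on the plus strand (RefSeq, GRCm38.p6). Because these genes had similar profiles over the 6 libraries, the 250 bases before their RefSeq start sites are shown, the Gpnmb window being chr6:49036268-49036517 and the Cd63 window chr10:128909095-128909344, both plus strand. The Cd63 start used by the promoter table lies inside the span of the gene.
Gpnmb: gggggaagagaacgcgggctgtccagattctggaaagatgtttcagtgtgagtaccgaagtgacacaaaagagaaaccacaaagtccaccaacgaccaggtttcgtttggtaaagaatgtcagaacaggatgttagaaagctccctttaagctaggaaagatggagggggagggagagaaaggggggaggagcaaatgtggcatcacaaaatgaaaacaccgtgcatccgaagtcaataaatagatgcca
Cd63: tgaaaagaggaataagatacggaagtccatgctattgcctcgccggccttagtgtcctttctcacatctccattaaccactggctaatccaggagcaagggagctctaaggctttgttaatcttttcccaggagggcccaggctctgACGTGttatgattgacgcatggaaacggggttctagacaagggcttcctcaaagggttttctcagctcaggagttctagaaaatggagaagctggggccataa
In all, 5 motifs were searched on both strands in 10 such windows of 7 of the 8 genes: CATGTG (MITF core), CACGTG (E-box, which contains the next motif), ACGTG (HIF core), TGANTCA (AP-1) and a STAT6 motif (TTC and GAA with 4 free bases between). Capitals mark the match found, ACGTG beginning 103 bases before the Cd63 start. ACGTG is held by 16.6% of all 32851 promoter windows of this length in the table. None of the 5 motifs is spelled in the Gpnmb window, which says only that these letters are not in those 250 bases.

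**Figure D2:**
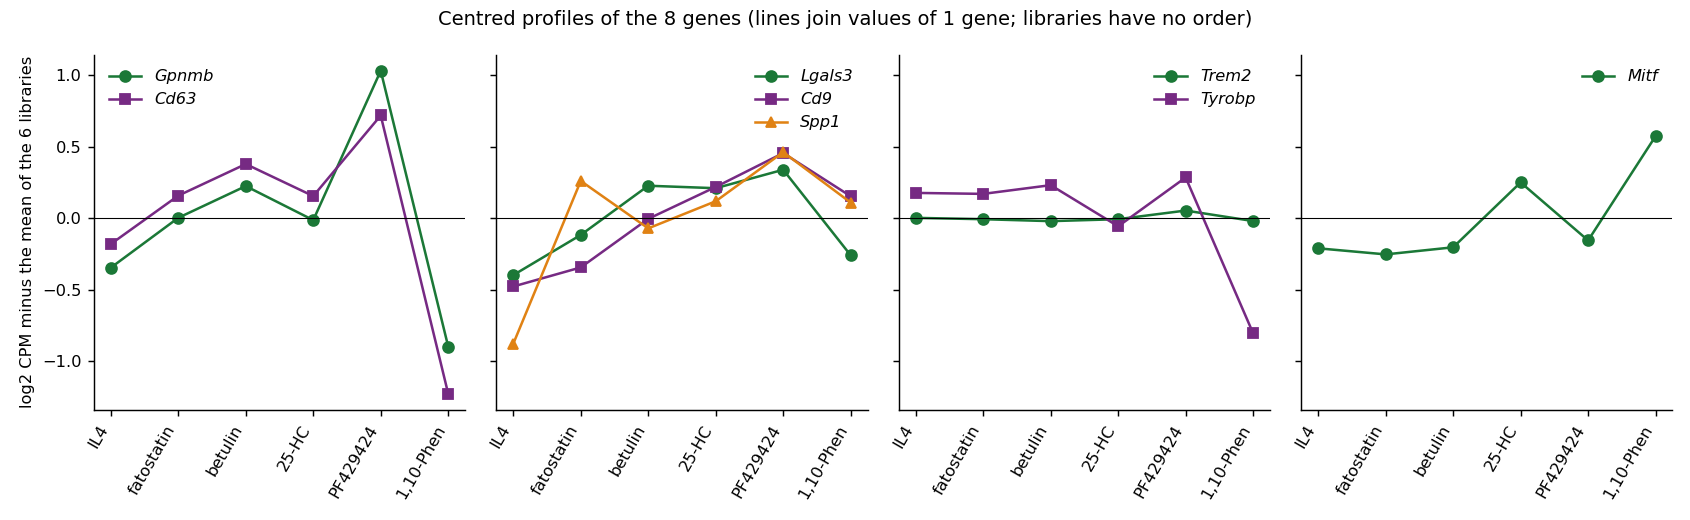
log2 CPM of each gene minus its own mean over the 6 libraries (vertical axis), by library (horizontal axis, libraries have no order and the lines only join values of 1 gene). Panels were set by choice: Gpnmb with Cd63, Lgals3 with Cd9 and Spp1, Trem2 with Tyrobp, and Mitf alone. Trem2 and Tyrobp share a panel as receptor and adaptor, not for a similar profile. Gpnmb and Cd63 peak with PF429424 and are lowest with 1,10-Phen, Trem2 is nearly flat, and Tyrobp drops with 1,10-Phen.

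Outside the 8 genes, the 4 of 9502 genes with the profile nearest to Gpnmb were Mfge8, Pld3, Arhgap24 and Ss18l2. Their root mean square differences were 0.14, 0.18, 0.18 and 0.18, where the median gene had 0.61. Mfge8, a secreted protein that bridges dying cells to phagocytes, stood at 29.6 FPKM with IL4, 38.0 with fatostatin, 38.8 with betulin, 29.8 with 25-HC, 78.9 with PF429424 and 16.5 with 1,10-Phen. It thus shared the high PF429424 and the low 1,10-Phen library with Gpnmb. For Cd63 the nearest genes were Pld3, Il11ra1, Tcirg1 and Cyfip2, at 0.088, 0.10, 0.12 and 0.12. Pld3, a lysosomal enzyme of the phospholipase D family and near to both genes, stood at 178 FPKM with IL4, 217 with fatostatin, 234 with betulin, 196 with 25-HC, 302 with PF429424 and 77.97 with 1,10-Phen. Tcirg1, a subunit of the proton pump of lysosomes and osteoclasts, stood at 268, 331, 325, 359, 428 and 116 FPKM in the same order. Il11ra1 has near-identical copies in the mouse genome, so its counts are uncertain.

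Trem2, the receptor, was nearly flat. It stood at 392 FPKM with IL4, 375 with fatostatin, 368 with betulin, 379.6 with 25-HC, 368 with PF429424 and 326 with 1,10-Phen. With TMM factors its level ran only from 392 CPM with betulin to 412 CPM with PF429424, on between 7315 and 8683 counts per library. That is a span of 0.07 on the log2 scale (95% interval 0.03 to 0.12), where the median gene spanned 0.71, and only 6 of the 11898 genes spanned less. The flatness depends on the scaling: with library totals alone the span was 0.26, the 1,10-Phen library was lowest and 616 genes spanned less, and with DESeq2 size factors the span was 0.06 and 2 genes spanned less. The ratio to IL4 lay between -0.02 and 0.05 in the 5 comparisons, and only that of PF429424, 0.05, was beyond counting error. Its sign turned to -0.09 with library totals. Trem2 lies at chr17:48346401-48352276 on the plus strand.

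Tyrobp, the signalling adaptor that TREM2 needs, did not share this flat profile. Its level was 1026 FPKM with IL4, 982 with fatostatin, 1018 with betulin, 851 with 25-HC, 1004 with PF429424 and 439 with 1,10-Phen. The 1,10-Phen library lay far below the other 5, which spread over a narrow range. The log2 ratio was -0.98 with 1,10-Phen (95% interval -1.03 to -0.93), just short of 2-fold, and -1.22 with library totals, which is past it. With 25-HC the ratio was -0.23, beyond counting error, and with fatostatin, betulin and PF429424 it was -0.01, 0.05 and 0.11, of which the betulin and PF429424 values turned to -0.01 and -0.03 with library totals. Per length, Tyrobp was 2.62 times as abundant as Trem2 with IL4, 2.62 with fatostatin, 2.76 with betulin, 2.24 with 25-HC and 2.73 with PF429424, but 1.35 times with 1,10-Phen. This quotient within a library does not depend on how libraries are scaled. Tyrobp lies at chr7:30413782-30417582 on the plus strand.

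The nearest profiles to Tyrobp were Idh3a, Slc25a5, Cptp and Lactb, with root mean square differences of 0.028, 0.038, 0.051 and 0.052. Idh3a, a subunit of the mitochondrial isocitrate dehydrogenase, stood at 23.8 FPKM with IL4, 23.2 with fatostatin, 24.4 with betulin, 20.6 with 25-HC, 24.4 with PF429424 and 10.1 with 1,10-Phen. The drop with 1,10-Phen and the slightly lower 25-HC library were those of Tyrobp. Slc25a5, an ADP/ATP carrier of the inner mitochondrial membrane with many pseudogene copies, stood at 272 FPKM with IL4 and 123 with 1,10-Phen.

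In the pathway below the receptor, 20 genes of TREM2-DAP12 signalling and of receptor shedding were all within 2-fold of IL4 with fatostatin, betulin, 25-HC and PF429424. The background of genes past 2-fold in those comparisons was 1.93%, 4.19%, 8.96% and 8.12%. With 1,10-Phen, against a background of 19.4%, 1 was higher and 1 lower. Vav3, a guanine nucleotide exchange factor, went from 16.5 to 29.9 FPKM at a log2 ratio of 1.12. Ptpn6, which encodes the inhibitory phosphatase SHP-1, went from 94.3 to 19.98 FPKM at -1.99. Syk, the kinase that docks on phosphorylated TYROBP, had ratios of 0.17, 0.14, 0.16 and 0.03 with fatostatin, betulin, 25-HC and PF429424 and of 0.45 with 1,10-Phen. Adam10, a protease that sheds TREM2, had -0.26, -0.51, -0.77, -0.58 and 0.11 in the order fatostatin, betulin, 25-HC, PF429424 and 1,10-Phen. Inpp5d, the lipid phosphatase SHIP-1, was below IL4 in all 5, between -0.76 and -0.26. The medians of the list were -0.06, -0.13, -0.16, -0.17 and -0.14, against 0.01, 0.01, 0.01, 0.02 and -0.02 over all genes. Syk, Adam10 and Inpp5d were named for their roles after their values were seen.

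Of 7 relatives of Trem2 and of Tyrobp, none was past 2-fold with fatostatin, 1 was lower with betulin, 2 were lower with 25-HC and with PF429424, and 1 was higher and 1 lower with 1,10-Phen. Over all genes the shares past 2-fold were 1.93%, 4.19%, 8.96%, 8.12% and 19.4% in that order. Treml4, a receptor of the same gene cluster as Trem2, went from 3.32 FPKM with IL4 to 21.9 with 1,10-Phen, a log2 ratio of 2.93, on 118 and 792 counts. It was at -1.05 with both 25-HC and PF429424. Treml1 was at -1.41 with 25-HC and -1.14 with PF429424, from 7.18 FPKM with IL4. Treml2 was at -1.03 with betulin and -1.09 with 1,10-Phen, on 154 counts with IL4. Each of these 3 relatives was far less abundant per length than Trem2 itself.

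Spp1, which encodes the secreted ligand osteopontin, was lowest in the IL4 library. It stood at 884 FPKM with IL4, 1872 with fatostatin, 1477 with betulin, 1719 with 25-HC, 2032 with PF429424 and 1481 with 1,10-Phen. The lowest compound library, betulin, was still well above the IL4 level, and the 25-HC and 1,10-Phen libraries did not differ beyond counting error once scaled with TMM factors. The log2 ratio was 1.14 with fatostatin (95% interval 1.12 to 1.16) and 1.34 with PF429424 (1.32 to 1.36), both past 2-fold. It lay just short of 2-fold with 25-HC at 1.00 (0.97 to 1.02) and with 1,10-Phen at 0.99 (0.96 to 1.01), and was 0.81 with betulin. With fatostatin, 99.4% of the genes compared had a lower ratio. Against the median of the 6 libraries in place of IL4, the Spp1 ratios were 0.15, -0.18, 0.005, 0.35 and -0.005. That median comes mostly from compound libraries. These values therefore cannot tell a deviation of the IL4 library from an effect common to the compounds. Spp1 lies at chr5:104435111-104441053 on the plus strand and is overlapped on the same strand by Gm42793, a predicted transcript whose reads the counting may share.

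The profiles nearest to Spp1 were Tigar, Knop1, Gdpd1 and Maoa, at root mean square differences of 0.22, 0.23, 0.23 and 0.24. Knop1, the highest of these, stood at 14.3 FPKM with IL4, 19.6 with fatostatin, 21.9 with betulin, 20.6 with 25-HC, 26.1 with PF429424 and 16.0 with 1,10-Phen. It too was lowest with IL4, but its span was smaller than that of Spp1. No gene followed Spp1 as closely as Pld3 followed Cd63.

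Of 11 compared genes for receptors and relatives of osteopontin and GPNMB, 1 was higher with fatostatin, none was past 2-fold with betulin, 1 was higher and 2 lower with 25-HC, 1 was lower with PF429424, and 1 was higher and 2 lower with 1,10-Phen. Beside these stand 1.93%, 4.19%, 8.96%, 8.12% and 19.4% of all genes, and 3 of 11 with 1,10-Phen is near that background. The gene counted with fatostatin was Ibsp, a bone sialoprotein, on 9 and 25 counts, and it was named after its values were seen. Itga4, an integrin subunit that binds osteopontin, went from 11.6 to 1.56 FPKM with 1,10-Phen at a log2 ratio of -2.65, and Itgb5 from 143 to 35.9 FPKM at -1.75. Itga5 went from 48.3 to 108 FPKM with 25-HC at 1.202. Itga9, another osteopontin-binding subunit, was at -1.28 with 25-HC and -1.35 with PF429424, from 1.93 FPKM with IL4. Itga8 was at 1.997 with 1,10-Phen on 29 and 106 counts.

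Lgals3, which encodes galectin-3, a lectin of the cytosol, damaged lysosomes and the cell surface, was the most abundant of the 8 per length in every library. It stood at 4273 FPKM with IL4, 4989.8 with fatostatin, 6292 with betulin, 6351 with 25-HC, 6467 with PF429424 and 3975 with 1,10-Phen. The betulin, 25-HC and PF429424 libraries formed a high group, with fatostatin between them and the pair of IL4 and 1,10-Phen. The log2 ratios to IL4 were 0.28, 0.62, 0.61 and 0.74 with fatostatin, betulin, 25-HC and PF429424. With 1,10-Phen the ratio was 0.14 with TMM factors but -0.10 with library totals, so its direction depends on the scaling. The other galectin list had 5 genes compared, and none was past 2-fold in any comparison. The shares of all genes past 2-fold were 1.93%, 4.19%, 8.96%, 8.12% and 19.4% with fatostatin, betulin, 25-HC, PF429424 and 1,10-Phen. A count of 0 among these 5 genes is near those shares. Lgals1, the only one of comparable abundance, stood at 1095 FPKM with IL4 and had ratios of 0.22, 0.41, -0.21, 0.55 and -0.31, and the binding partner Lgals3bp had 0.34, -0.31, -0.88, -0.08 and -0.82, both named after their values were seen. All 5 genes of this list, Lgals3bp among them, had ratios below 0 with 25-HC and with 1,10-Phen. Over all genes, 50.7% and 49.1% were above 0 in these 2 comparisons. Lgals4, on 25 counts with IL4, was within counting error in both.

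Cd9, a tetraspanin of the plasma membrane, stood at 439 FPKM with IL4, 463 with fatostatin, 582 with betulin, 693 with 25-HC, 760.5 with PF429424 and 574 with 1,10-Phen. It was lowest with IL4 and highest with PF429424, and no 2 neighbours in the TMM-scaled order lay within counting error. Its log2 ratios were 0.13, 0.47, 0.70, 0.93 and 0.63 in the order fatostatin, betulin, 25-HC, PF429424 and 1,10-Phen, the PF429424 ratio lying just short of 2-fold. Cd9 lies at chr6:125460266-125494760, on the minus strand in the annotation, and is overlapped on the other strand by Gm28809 and Gm26728. The deposited tables give Cd9 the plus strand, the strand of these overlapping genes. Whether the counting used strand is not stated in the labels, so reads of these genes cannot be told apart. The quotient of Cd63 to Cd9 in FPKM was 1.17 with IL4, 1.35 with fatostatin, 1.25 with betulin, 0.913 with 25-HC, 1.15 with PF429424 and 0.367 with 1,10-Phen, so the balance of the tetraspanin pair differed most with 1,10-Phen.

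Lgals3, at chr14:47373860-47386167 on the plus strand, and Cd9 were the pair with the most similar profiles, which is why their windows are shown. They are chr14:47373610-47373859 on the plus strand and chr6:125494761-125495010 on the minus strand, from RefSeq on GRCm38.p6.
Lgals3: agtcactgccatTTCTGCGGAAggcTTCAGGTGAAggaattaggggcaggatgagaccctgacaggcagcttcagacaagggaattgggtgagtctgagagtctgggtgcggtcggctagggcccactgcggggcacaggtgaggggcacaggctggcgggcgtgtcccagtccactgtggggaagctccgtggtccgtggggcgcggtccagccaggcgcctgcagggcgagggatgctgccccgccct
Cd9: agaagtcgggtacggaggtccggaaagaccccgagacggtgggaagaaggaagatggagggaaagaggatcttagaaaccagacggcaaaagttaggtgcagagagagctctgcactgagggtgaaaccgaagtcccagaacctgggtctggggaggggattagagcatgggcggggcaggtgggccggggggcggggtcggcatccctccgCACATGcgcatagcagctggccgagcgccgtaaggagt
Capitals mark the STAT6 motif in the Lgals3 window, which begins 238 and 225 bases before the start, and CACATG in the Cd9 window, the reverse strand of CATGTG, which begins 38 bases before the start. The STAT6 motif is held by 5.85% of all windows and CATGTG by 12.3%. Over the 10 windows, the HIF core was found in 2, the MITF core, the AP-1 motif and the STAT6 motif in 1 each, and the E-box in 0. The AP-1 motif is held by 6.75% of all windows and the E-box by 6.02%. These matches describe the letters and are not evidence of binding.

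Of the other tetraspanins and their partners, 18 of 20 genes were compared. With fatostatin 1 was higher, 2 were higher and 1 lower with betulin, 1 higher and 3 lower with 25-HC, 1 higher and 1 lower with PF429424, and 5 higher and 2 lower with 1,10-Phen. The share of genes past 2-fold in either direction was 1.93%, 4.19%, 8.96%, 8.12% and 19.4% of all genes in the order fatostatin, betulin, 25-HC, PF429424 and 1,10-Phen. Cd81, a close relative of CD9, went from 85.0 to 34.2 FPKM with 25-HC at a log2 ratio of -1.28, a library in which Cd9 itself was above IL4. Cd53, a tetraspanin of leukocytes, went from 189 to 406 FPKM with 1,10-Phen at 1.35, and Tspan3 from 42.9 to 14.9 FPKM at -1.28. Tspan13 was at 1.19 with betulin, 1.35 with 25-HC and 1.54 with 1,10-Phen, from 4.39 FPKM with IL4. Tspan7 was at 3.17 with PF429424, on 14 counts with IL4 and 135 with PF429424.

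Mitf, the transcription factor of the group, was the least abundant of the 8. It stood at 37.4 FPKM with IL4, 34.8 with fatostatin, 36.1 with betulin, 50.3 with 25-HC, 35.4 with PF429424 and 55.1 with 1,10-Phen. The 25-HC and 1,10-Phen libraries were high, and the other 4 did not differ beyond counting error between neighbours in their order. The log2 ratios were -0.04, 0.01, 0.46, 0.06 and 0.78 in the order fatostatin, betulin, 25-HC, PF429424 and 1,10-Phen, none past 2-fold. The betulin and PF429424 ratios turned negative with library totals. Mitf and Gpnmb had unlike profiles, with a root mean square difference of 0.81. The quotient of Gpnmb to Mitf in FPKM was 64.9 with IL4, 85.3 with fatostatin, 95.3 with betulin, 59.2 with 25-HC, 161 with PF429424 and 25.4 with 1,10-Phen. The table holds 17 transcripts of Mitf, at chr6:97807002-98021360 on the plus strand, and values are sums over them, so the levels of single isoforms were not analysed here.

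Of 14 relatives and regulators of MITF, only Tfec was past 2-fold, and only with 25-HC and PF429424. Tfec, a member of the same family restricted largely to macrophages, went from 48.8 FPKM with IL4 to 21.3 with 25-HC and 20.8 with PF429424, at log2 ratios of -1.17 and -1.10. Tfeb and Tfe3, the other family members and named for that reason, had ratios between -0.60 and 0.19 and between -0.19 and 0.23. Of 22 lysosomal and autophagy genes known as targets of this family, only Sqstm1 was past 2-fold. Sqstm1, which encodes the autophagy receptor p62, went from 231 FPKM with IL4 to 579 with 25-HC and 1009 with 1,10-Phen, at 1.37 and 2.37. Over all genes, 8.96% were past 2-fold with 25-HC, 8.12% with PF429424 and 19.4% with 1,10-Phen. Neither the 14 relatives and regulators nor the 22 targets stood above these shares. The medians of the target list were 0.14, 0.02, -0.17, 0.15 and 0.05 in the order fatostatin, betulin, 25-HC, PF429424 and 1,10-Phen, beside the all-gene medians given with the signalling list.

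**Figure D3:**
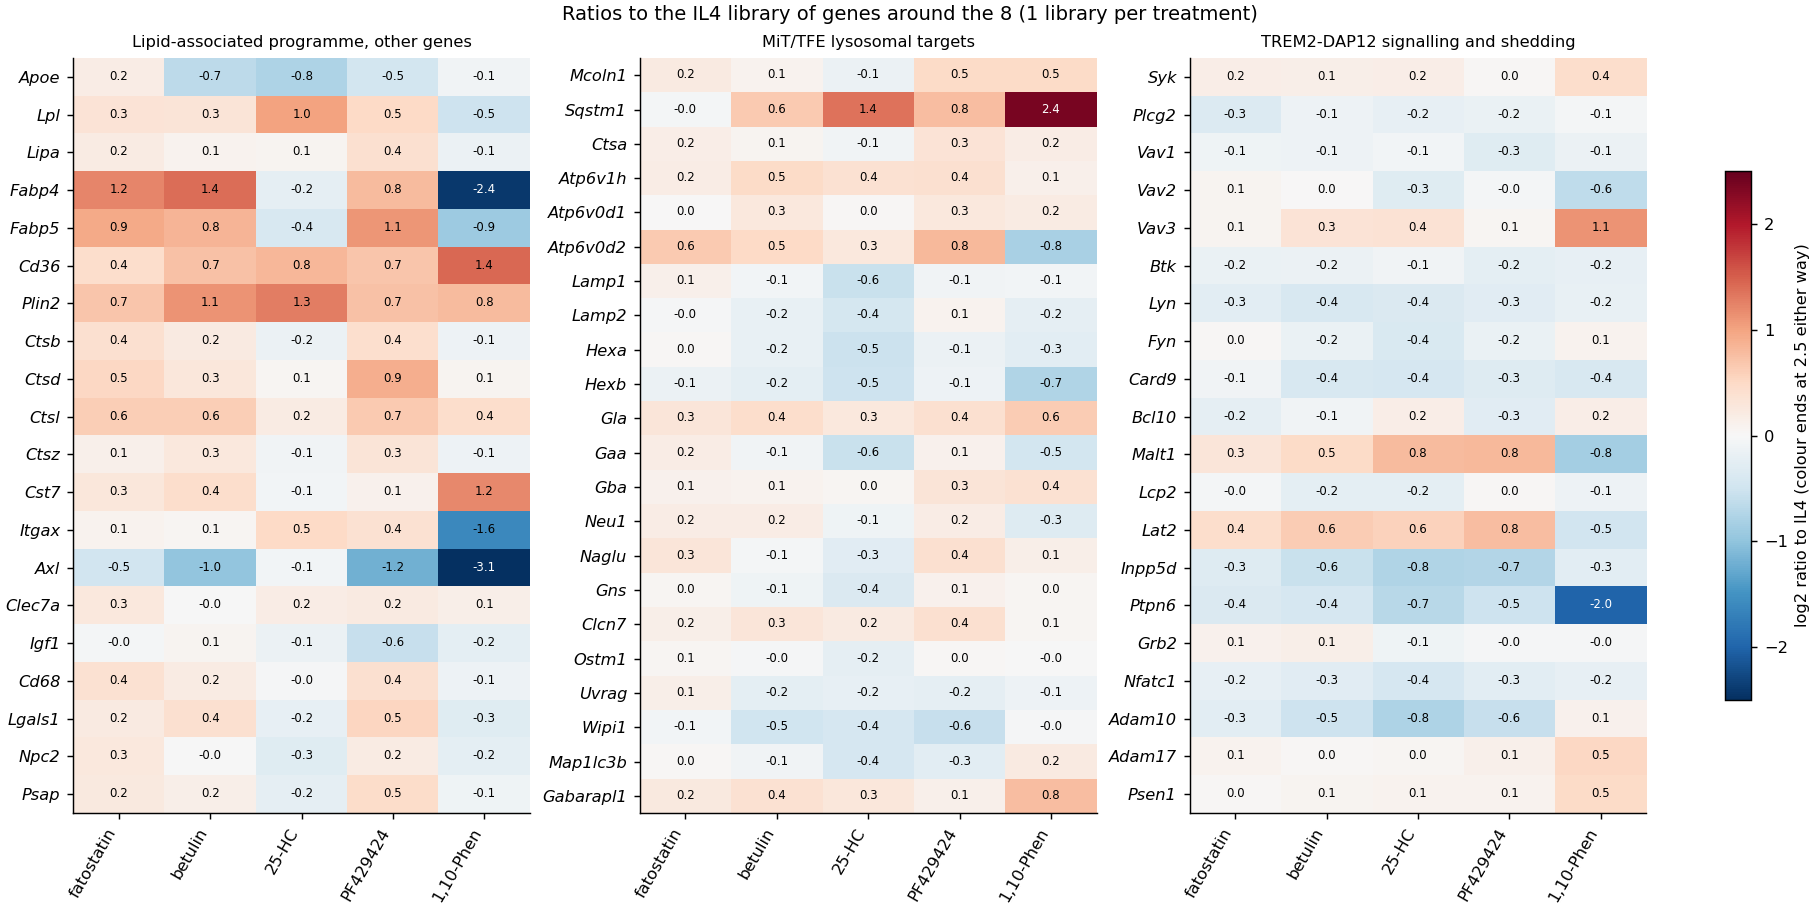
log2 ratio to the IL4 library (colour, with each value printed in its cell) of 20 other genes of the lipid-associated programme, 22 lysosomal targets of the MITF family and 20 genes of TREM2-DAP12 signalling and shedding, in rows, for the 5 compounds, in columns. Fabp4 and Axl stand out in the first panel, Sqstm1 in the second and Ptpn6 in the third, and the 1,10-Phen column holds the value largest in size of each panel.

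Counted against IL4, 1 of the 8 genes was past 2-fold with fatostatin (Spp1, higher; background 1.93% of genes), 0 with betulin (4.19%), 0 with 25-HC (8.96%), 2 with PF429424 (Gpnmb and Spp1, higher; 8.12%) and 1 with 1,10-Phen (Cd63, lower; 19.4%). In the higher direction the background was 0.874% with fatostatin and 2.49% with PF429424, and in the lower direction with 1,10-Phen it was 11.8%, so that 1 of 8 with 1,10-Phen is near the background. The median log2 ratio of the 8 genes was 0.21, 0.52, 0.40, 0.82 and 0.06 in the order fatostatin, betulin, 25-HC, PF429424 and 1,10-Phen, against 0.01, 0.01, 0.01, 0.02 and -0.02 over all genes. Spp1, Lgals3 and Cd9 were above IL4 in all 5 compound libraries, Lgals3 with the exception in sign for 1,10-Phen given above, as were 17.7% of the genes compared. With PF429424 all 8 ratios were above 0, as were 52.3% of the genes compared. Those of Trem2, Tyrobp and Mitf were small and turned with library totals. Over the 6 libraries, 4 of the 8 genes (Cd63, Gpnmb, Spp1 and Tyrobp) spanned 2-fold or more, at 1.94, 1.93, 1.34 and 1.09, as did 33.0% of genes.

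**Figure D4:**
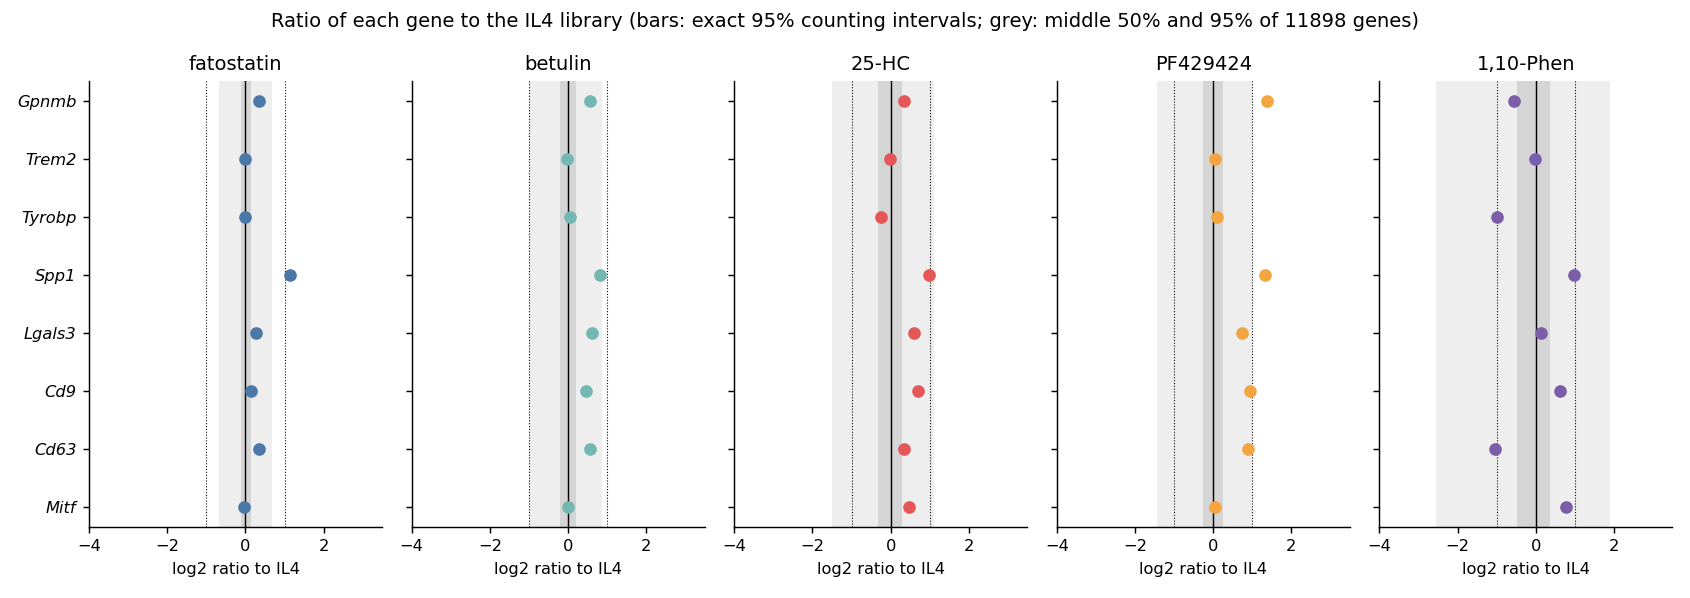
log2 ratio to the IL4 library (horizontal axis) of the 8 genes (rows), 1 panel per compound; bars are exact 95% counting intervals, mostly shorter than the points, dotted lines mark 2-fold, and the dark and light bands hold the middle 50% and 95% of the 11898 genes. Spp1 lies past the dotted line with fatostatin and PF429424, Gpnmb with PF429424, and Cd63 with 1,10-Phen on the lower side.

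Compound libraries were also set against each other directly. Between PF429424 and 1,10-Phen, 3 of the 8 genes were past 2-fold, all lower with 1,10-Phen (background 17.2%): Cd63 at -1.94, Gpnmb at -1.93 and Tyrobp at -1.09. The same 3 genes were lower with 1,10-Phen than with betulin (background 18.0%), at -1.61, -1.12 and -1.04. Against fatostatin and against 25-HC, with backgrounds of 19.2% and 16.4%, only Cd63 was past 2-fold, lower at -1.38 in both. Gpnmb was higher with PF429424 than with fatostatin, at 1.03 (background 5.34%), and than with 25-HC, at 1.04 (3.69%). Against betulin it was at 0.81, and none of the 8 was past 2-fold between PF429424 and betulin (3.42%). None was past 2-fold between betulin and fatostatin (3.03%), 25-HC and fatostatin (7.17%) or 25-HC and betulin (3.62%). The doses are not given, so none of these 10 pairs is known to be matched in dose, and sizes between compounds are given side by side without ranking the compounds.

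A list of 20 other genes of the lipid-associated programme was read beside the 8. With fatostatin 1 was higher and none lower, with betulin and with 25-HC 2 were higher and none lower, with PF429424 1 was higher and 1 lower, and with 1,10-Phen 2 were higher and 3 lower. All genes gave 1.93%, 4.19%, 8.96%, 8.12% and 19.4% in these comparisons. The counts with 25-HC and PF429424, 2 of 20 each, and with 1,10-Phen, 5 of 20, are near the background. The medians of the 20 genes were 0.27, 0.24, -0.06, 0.41 and -0.12. The fatty acid binding protein Fabp4 stood at 163 FPKM with IL4, 365 with fatostatin, 409 with betulin, 135 with 25-HC, 255 with PF429424 and 25.7 with 1,10-Phen. Its fatostatin and betulin ratios, 1.22 and 1.4003, and its 1,10-Phen ratio, -2.42, were past 2-fold. Fabp5, which has near-identical pseudogene copies and so is uncertain, was at 1.10 with PF429424.

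Plin2, a coat protein of lipid droplets, stood at 430.1 FPKM with IL4, 671 with fatostatin, 893 with betulin, 1017 with 25-HC, 655 with PF429424 and 629 with 1,10-Phen. It was lowest with IL4, like Spp1, and its betulin and 25-HC ratios, 1.12 and 1.28, were past 2-fold. Lpl, lipoprotein lipase, went from 764 to 1491 FPKM with 25-HC at 1.00, at the edge of the threshold. Cd36, a scavenger receptor for fatty acids and oxidised lipoproteins, went from 908 to 2086 FPKM with 1,10-Phen at 1.44. Axl, a receptor for dying cells, stood at 47.0 FPKM with IL4, 32.6 with fatostatin, 22.8 with betulin, 43.9 with 25-HC, 18.7 with PF429424 and 4.77 with 1,10-Phen. It was below IL4 in every compound library, at -1.203 with PF429424 and -3.07 with 1,10-Phen. Itgax was at -1.60 with 1,10-Phen. Apoe, the apolipoprotein known as a TREM2 ligand and named here for that role, stood at 2092 FPKM with IL4 and had ratios of 0.18, -0.65, -0.78, -0.47 and -0.10.

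Cell type marker lists also differed between libraries, and not only in those where Gpnmb and Cd63 stood apart. The osteoclast list of 11 genes summed to 1330.1 CPM with IL4, 1942 with fatostatin, 1646 with betulin, 1570 with 25-HC, 2020 with PF429424 and 765 with 1,10-Phen, but the sum with PF429424 was carried by Atp6v0d2, on 17852 counts with IL4 and 29571 with PF429424. By list median the PF429424 ratio was -0.16, with 5 of 9 compared genes below IL4, and the 1,10-Phen ratio was -0.64, with 7 of 9 below. None of the 9 was past 2-fold in the other 4 comparisons, while 3 were lower with 1,10-Phen: Ocstamp at -3.17, Dcstamp at -2.51 and Acp5 at -1.31. The defining genes Calcr and Oscar were at or under 3 counts in every library. Of 12 compared neutrophil markers, 9 were lower with PF429424 and 9 with 1,10-Phen, the libraries where Gpnmb was highest and lowest. Of the 12 macrophage markers, 1, 1, 5, 4 and 5 were lower in the order fatostatin, betulin, 25-HC, PF429424 and 1,10-Phen, and Cd14 was higher with 25-HC at 1.48. Beside the osteoclast, neutrophil and macrophage counts, the all-gene shares in either direction were 1.93%, 4.19%, 8.96%, 8.12% and 19.4% in the same order. In the lower direction alone, the share with 1,10-Phen was 11.8%. The part of these markers in the values of the 8 genes was not tested.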

How the data were processed

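Total RNA of 6 macrophage cultures, 1 ug each, was sequenced, with no treatment repeated. The deposited tables hold, per the file headers, an expected count for each gene that was not scaled between libraries, and between 30.5% and 32.0% of these values were not whole. A column of FPKM, which the authors normalized for length and depth per the file headers, stands beside it. HISAT2, Bowtie2, DESeq2 and RSEM 1.2.12 appear in the submitters' processing notes, their roles unstated.

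For the present work, expected counts were rounded and scaled with TMM factors over all genes (edgeR 4.0.16, R 4.3.3). Genes that reached a CPM of 1 in any library were compared as log2 ratios to IL4 with a prior count of 2 and exact Clopper-Pearson 95% intervals. As no group had a second library, edgeR served only for scaling, and the ratios were checked on simulated data. The simulated counts had counting error only and known library sizes. That check covers the calculation, and not the scaling or the spread between cultures. A total of 3 counts equals between 0.137 and 0.161 CPM.

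The 8 genes and all lists were chosen with earlier results of these data known. Named besides the 8 were up to 4 genes per list and comparison. They were the largest in size among those past 2-fold with a CPM of at least 5. Also named were the 4 genes with the nearest profile to each of the 8 whose log2 CPM spanned at least 1. Lgals4 and genes of the cell type marker lists were named outside this rule. Other exceptions are marked. Positions and promoter windows, 250 bases before a start, are from RefSeq on GRCm38.p6, and overlaps from GENCODE. Alternatives were size factors of DESeq2 1.42.0, scaling by library totals, comparison without the filter or with a CPM minimum of 5, a prior count of 0.5 or 10, log2(FPKM + 1), log2(FPKM + 0.1), the median of the 6 libraries as reference and, added after the data were seen, TMM factors after the filter. Other steps used Python 3.11.15, SciPy 1.17.1, pandas 2.3.3 and numpy 2.4.6.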

Additional observations from a re-analysis of the deposited data

How the results depend on the processing

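No paired analysis was possible because each treatment has only 1 library. Of the 40 ratios of the 8 genes to IL4, 34 kept their sign under all 9 alternatives that keep IL4 as the reference. The other 6 changed sign under at least 1, none of them above 0.138 in size. Not all 9 could move a sign. A change of filter leaves the ratio of a gene that passes as it was, and at these counts the prior count hardly moves it. Only the other scalings and the FPKM values put the signs to a check. The number of the 8 genes past 2-fold with 1,10-Phen went from 1 to 2 with library totals, log2(FPKM + 1) and log2(FPKM + 0.1), because Tyrobp then passed 2-fold. Against the median of the 6 libraries, it went from 1 to 0 with fatostatin and from 2 to 1 with PF429424, where Spp1 no longer passed. Library totals put the median log2 ratio of all genes at -0.11 with PF429424 and -0.25 with 1,10-Phen.

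Over all genes, higher against lower counts went from 296 and 670 to 216 and 871 with PF429424 under library totals, and from 903 and 1408 to 641 and 1940 with 1,10-Phen. With fatostatin, 104 higher and 126 lower became 42 and 64 at a CPM of at least 5, 52 and 76 with a prior count of 10, and 23 and 47 with log2(FPKM + 1). There, 166 were higher without a filter, 63 were higher with log2(FPKM + 0.1), and 70 were lower against the median. With betulin, 227 and 272 became 138 and 146 at a CPM of at least 5, 76 and 101 with log2(FPKM + 1), and 57 and 47 against the median. With 25-HC, 389 and 677 became 174 and 340 with log2(FPKM + 1) and 120 and 205 against the median, and 442 were lower at a CPM of at least 5. With PF429424, 296 and 670 became 95 and 397 with log2(FPKM + 1) and 66 and 159 against the median, 435 were lower at a CPM of at least 5, and 191 were higher with log2(FPKM + 0.1). With 1,10-Phen, 399 were higher with log2(FPKM + 1). The cause of these shifts was not tested. Between 3517 and 459724 counts stood behind each value of the 8 genes, while the spread between cultures of 1 treatment was not measured.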
